A study of Bos taurus with 20 samples.

Results

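Cholesterol is built from acetyl-CoA along 1 long chain of enzymes, and 7 genes of that chain were followed across the cells of the bovine antral follicle. They were HMGCS1, MVK, FDPS, FDFT1, SQLE, LSS and DHCR7, chosen by name as a list of cholesterol synthesis genes. All of them code for enzymes of synthesis, so genes of cholesterol uptake were read from separate lists. On the customised bovine Agilent array 22 of the 61325 non-control probes carried the name of a member, which made 7 of the 22550 genes measured.

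The series held 20 one-colour arrays in 5 groups of 4. Theca cells (TH) were scraped from the walls of 3 to 6 mm follicles, and cumulus cells (CC), oocytes and granulosa cells (GC) were taken from follicles of the same size class. These 4 groups were labelled immature, and the remaining group held CC collected after 4 h of in vitro maturation (IVM). Each array was hybridised with Cy3-labelled RNA made from 200 ng of total RNA. The labels gave no breed, age or number of animals per replicate, so the p-values measure the spread between these samples, part of which may be technical.

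In the mevalonate part of the pathway, HMGCS1 joins acetyl-CoA to acetoacetyl-CoA at an early step. MVK phosphorylates mevalonate, and FDPS joins isoprene units into farnesyl diphosphate. FDFT1, squalene synthase, then takes farnesyl diphosphate into the sterol branch, SQLE oxidises squalene, and LSS closes the rings to form lanosterol. DHCR7 carries out a final reduction on the way to cholesterol. The genes of the pathway are textbook targets of the transcription factor SREBF2, which INSIG1 holds back when sterols are plentiful. In mouse follicles the oocyte is known to be poor at making cholesterol and to depend on the cumulus cells around it.

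The array gives no reads, and what was measured for each gene was binding to 60-base probes. The member probes had 17 distinct sequences, since probes of DHCR7, FDFT1 and LSS were in part printed more than once. The array design placed the transcript models on genome build UMD 3.1. The FDPS models lay on chromosome 3, where FDPS-201 spanned chr3:15356047-15374313 and FDPS-202 spanned chr3:15366041-15374937. The others were HMGCS1 at chr20:31451386-31474239, MVK at chr17:65863712-65882658, FDFT1 at chr8:7427461-7453906, SQLE at chr14:16723393-16745626, LSS-201 at chr1:147623691-147654154 and DHCR7 at chr29:48930324-48950644. Strand and exon were not in the array annotation.

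Pieces of 30 bases are shown for the probes on which the results turn, 5′ to 3′ as printed on the array. FDPS is shown because its probes disagreed, HMGCS1 because it was the member with the higher signal in the oocyte, and LSS and DHCR7 because they moved most, and in opposite directions, with IVM. Capitals mark AATAAA, the polyadenylation signal, except in FDPS probe 4, where they mark bases shared with FDPS probe 3.
FDPS probe 1: ccaggaagatgcaggcctgctgtccctcct
FDPS probe 2: tatactgactgtccccaaagtatcttccct
FDPS probe 3: aggaggcttcttAATAAAttattgtctaac
FDPS probe 4: atctacaagcggaaaaagtGACCTAGAGTC
HMGCS1 probe 1: tatgcatgaagcttagtttttaaatgtagc
HMGCS1 probe 2: agcggtactagtctccgattttaatttttt
LSS probe 1: aagtgcttaacgcatAATAAAaatgtacct
DHCR7 probe 3: cttctgtgtcacAATAAAgcaagtctcatg
AATAAA was found in 9 of the 22 member probes (every print counted, 17 distinct sequences), from 6 of the 7 members and not from HMGCS1. It was in 8.3% of all 61325 probes, and its reverse complement TTTATT, searched as the other strand, was in 3.3%. A match describes the probe only and says nothing of which 3′ end a cell uses.

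Several features of the arrays bear on all of the results. Between 49.35% and 68.75% of probes were well above background, the lowest being oocyte replicate 2, and no spot was saturated. The 75th percentile of intensity, which served as the scale of each array, had group medians from 333.05 after IVM to 1745.9 in the oocyte. Replicates 1 and 2 of TH, GC, CC and oocyte lay on one slide and replicates 3 and 4 on another, whereas all arrays after IVM lay on a slide of their own, so IVM and slide cannot be told apart. The cell labels were borne out by markers: summed linear signal of the 6 oocyte markers was 248 to 330 times the array's 75th percentile in oocyte and at most 3.01 elsewhere, and that of the 5 theca markers was 575 to 830 in TH and at most 115 elsewhere. Summed granulosa and cumulus markers were 18.1 to 33.4 in TH, 110 to 450 in GC, 381 to 393 in CC, 625 to 769 after IVM and 2.2 to 3.02 in oocyte. After IVM only INHBA of these 4 markers was called higher (1.07), while FSHR (-1.25), CYP19A1 (-1.26) and AMH (-1.04) were called lower. Of 20 alternatives, the call was lost in 10 for CYP19A1, in 4 for FSHR and in 1 for INHBA, and FSHR turned in 1. GC replicate 4 stood apart from the other GC arrays: its CYP19A1 level was 1.54 against -2.33 to -1.19. CYP19A1 was also highest on replicate 4 in TH (-3.84 against -6.25 to -5.52) and in CC (0.84 against -0.55 to 0.52). In such bulk samples, fewer cells of a type and less RNA per cell cannot be told apart.

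The first comparison set the oocyte against the 12 arrays of TH, GC and CC. Of the 7 members, 6 were lower in the oocyte and 1, HMGCS1, was higher, although FDPS and FDFT1 did not keep this direction under every processing, as given with their values. SQLE and DHCR7 differed most, by 7.5-fold and 4.82-fold. Over all genes, 38.3% were called lower in the oocyte and 32.9% higher, so that a call in one direction or the other was the common case. The median difference of all genes was -0.52 on the log2 scale and that of the 7 members was -1.56. No filter was applied in the main analysis, so shares and medians over all genes, here and below, take in genes near background. Levels here and in what follows are log2 signal relative to the array's 75th percentile, and differences are log2 differences from limma with Benjamini-Hochberg adjustment over all genes.

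**Figure D1:**
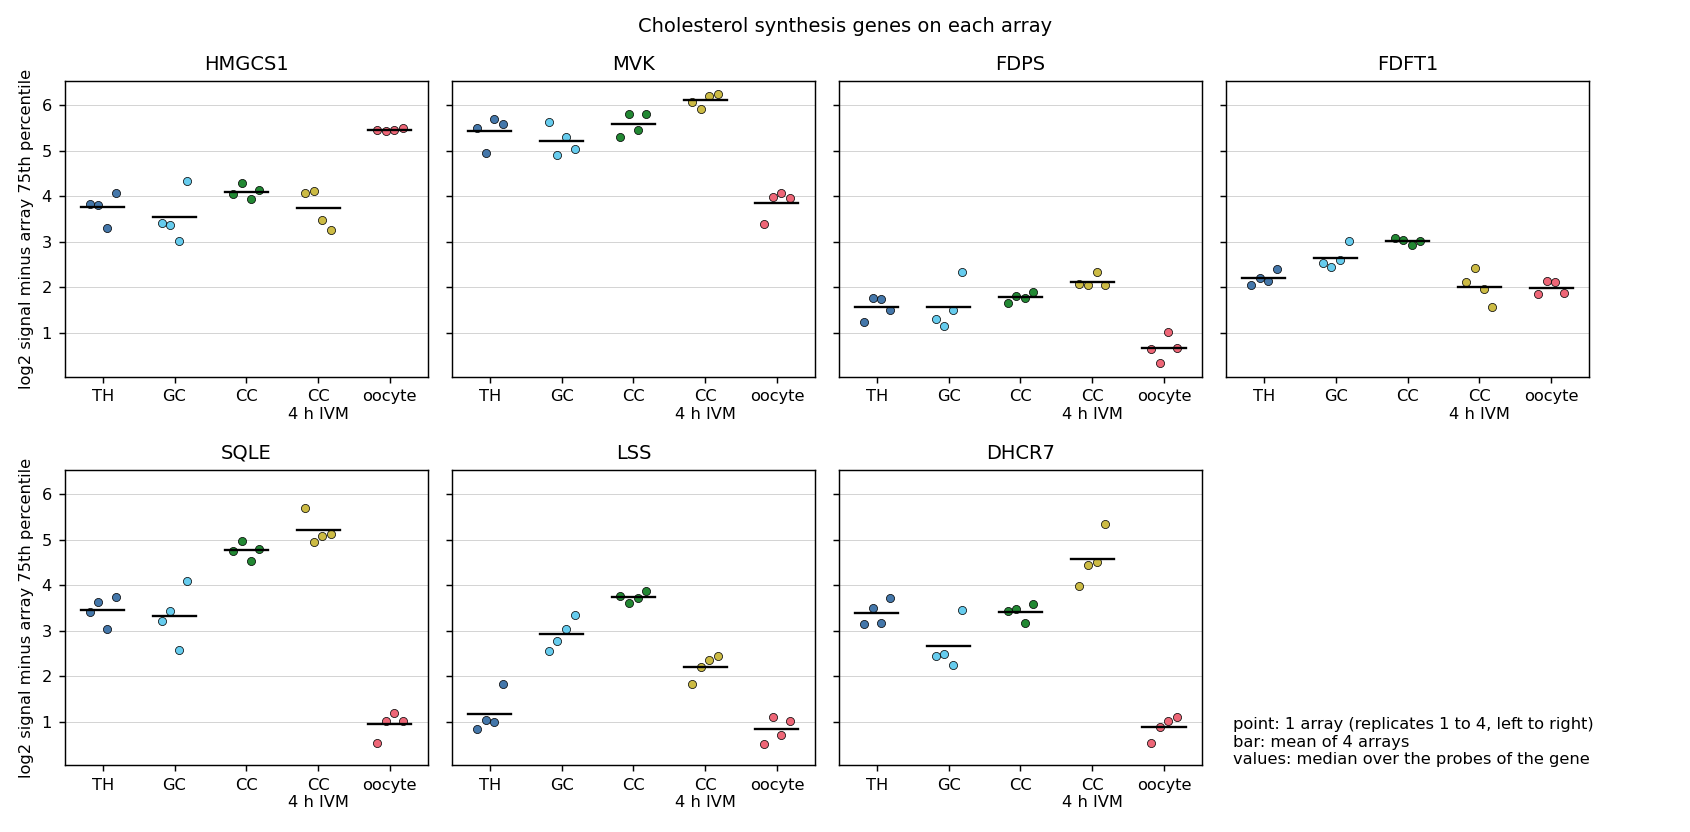
Level of each member on each of the 20 arrays, as log2 signal relative to the array's 75th percentile, by group. Points are arrays and bars are group means. HMGCS1 sits highest in the 4 oocyte arrays (5.43 to 5.51), whereas SQLE, DHCR7 and MVK sit lowest there.

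HMGCS1, an early step of the pathway, was the exception. Its levels in the oocyte were 5.46, 5.43, 5.46 and 5.51 in replicates 1 to 4, against a lowest, median and highest of 3.02, 3.89 and 4.34 in the somatic arrays. All 4 oocyte arrays thus lay above all 12 somatic arrays. The difference was 1.66 (SE 0.20, adjusted p = 1.3e-06), a 3.17-fold higher signal. The somatic groups overlapped one another for this gene, with means of 3.76 ± 0.33 in TH, 3.54 ± 0.57 in GC and 4.10 ± 0.15 in CC (SD, n = 4).

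MVK, the mevalonate kinase, went the other way. Its oocyte levels were 3.39, 3.99, 4.08 and 3.95, and the somatic arrays ran from 4.90 through a median of 5.47 to 5.81. No oocyte array reached the lowest somatic one. The difference was -1.56 (SE 0.18, adjusted p = 1.2e-06), or 2.95-fold lower.

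The members at the sterol branch point differed less. FDFT1 levels in the oocyte were 1.86, 2.13, 2.11 and 1.88, inside the lower end of the somatic range of 2.04 to 3.08 (median 2.56) or just under it. Its difference from the somatic mean was -0.62 (SE 0.12, adjusted p = 0.00028) and close to the median of all genes, from which it differed by -0.11, and in the table of values deposited by the authors it was 0.02 (adjusted p = 0.89). Its difference from CC was -1.02 (adjusted p = 1.9e-05), and its difference from TH, -0.20, did not pass (adjusted p = 0.24).

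SQLE, which makes squalene epoxide and is a rate-limiting step of the sterol branch, gave the widest separation. Oocyte levels were 0.53, 1.02, 1.19 and 1.02, while the somatic arrays ran from 2.58 through 3.68 to 4.98. The groups did not overlap, and the difference was -2.91 (SE 0.22, adjusted p = 7.1e-09). Against CC alone it was -3.82, a 14.1-fold lower signal in the oocyte.

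LSS, the cyclase that makes lanosterol, was low in both oocyte and TH. Its oocyte levels were 0.52, 1.10, 0.71 and 1.01, and those of TH were 0.84, 1.04, 0.99 and 1.82, so these 2 groups overlapped. The difference from the somatic mean was -1.78 (SE 0.19, adjusted p = 3.6e-07), but that from TH alone, -0.34, did not pass (adjusted p = 0.2).

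DHCR7, the last of the chain among the members, had oocyte levels of 0.52, 0.89, 1.01 and 1.09. Somatic levels ran from 2.23 through a median of 3.30 to 3.72, with no overlap. The difference was -2.27 (SE 0.20, adjusted p = 3.9e-08).

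FDPS had a median over its probes of 0.65, 0.33, 1.02 and 0.66 in the oocyte and of 1.15 to 2.33 (median 1.69) in the somatic arrays. The groups did not overlap, and the gene was called lower in the oocyte by the chosen summary, with a difference of -0.97 (SE 0.19, adjusted p = 0.00029). The call was lost with quantile normalization (-0.16), with the mean over probes (-0.32) and in the deposited table (-0.02), and with the brightest probe the direction turned (1.86). Hence no direction for FDPS can be read from the gene value, and its probes are described singly.

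**Figure D2:**
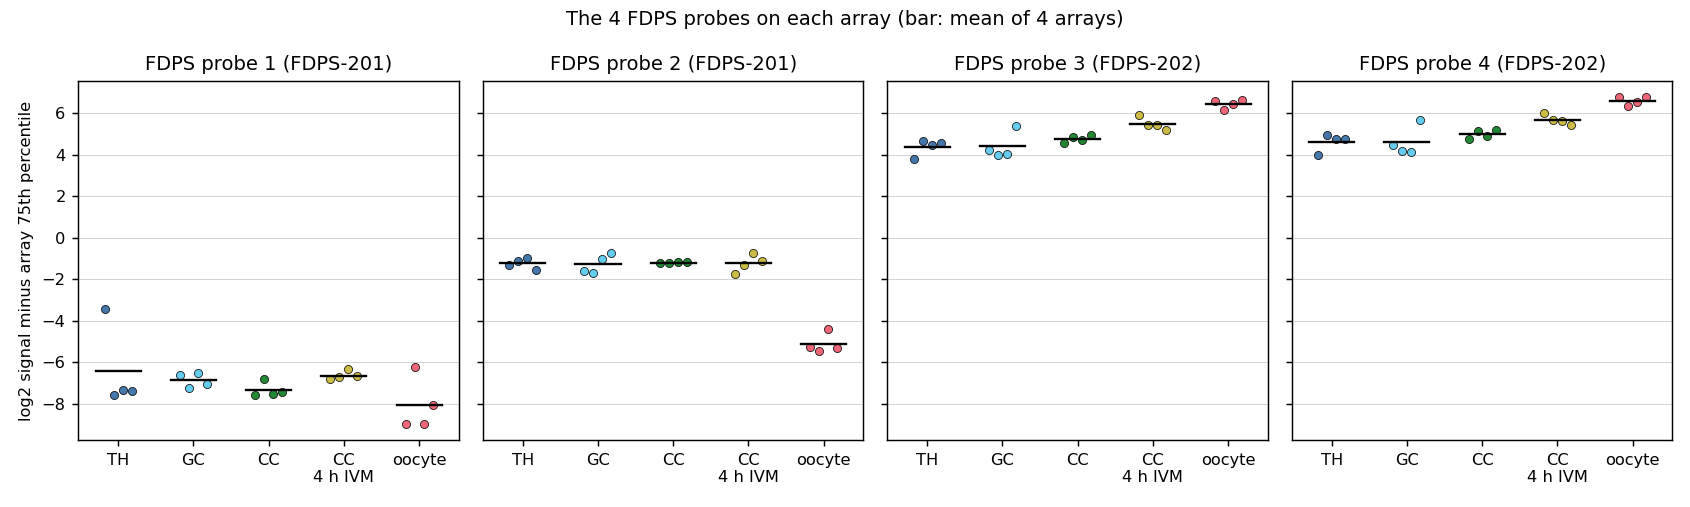
Level of each of the 4 FDPS probes on each of the 20 arrays, as log2 signal relative to the array's 75th percentile, by group. Points are arrays and bars are group means. The probes of model FDPS-202 (probes 3 and 4) are highest in the oocyte, whereas probe 2 of model FDPS-201 is lowest there.

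Probes 3 and 4, which belong to model FDPS-202 and share 41 bases, measured the opposite of probe 2. Probe 3 had oocyte levels of 6.57, 6.15, 6.46 and 6.64, against means of 4.37 in TH, 4.41 in GC and 4.76 in CC, and all of its oocyte arrays were above all somatic ones. The difference was 1.94 (SE 0.23, adjusted p = 2.1e-06), and that of probe 4 was 1.86 (SE 0.25, adjusted p = 7.3e-06). Being overlapping sequences, these probes are not independent measurements.

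Probe 2, of model FDPS-201, had means of -1.25 in TH, -1.27 in GC and -1.20 in CC, nearly the same in the 3 somatic groups. In the oocyte it was at -5.27, -5.49, -4.42 and -5.32, with 3 of 4 arrays well above background. The difference was -3.88 (SE 0.21, adjusted p = 1.6e-10). Probe 1 of the same model was not well above background on any array but 1 of TH and near background throughout. FDPS-201 started 9994 bases before FDPS-202, and in the RefSeq annotation of a later assembly, ARS-UCD2.0, the neighbours of FDPS were RUSC1 on one side and PKLR on the other. Whether the FDPS-201 probes measured FDPS transcripts was not tested. The probes of each other member agreed in direction in this comparison, and all of them were called with the gene. Some were prints of the same sequence and not independent: the 4 probes had 2 distinct sequences for FDFT1 and for DHCR7, and 3 for LSS.

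**Figure D3:**
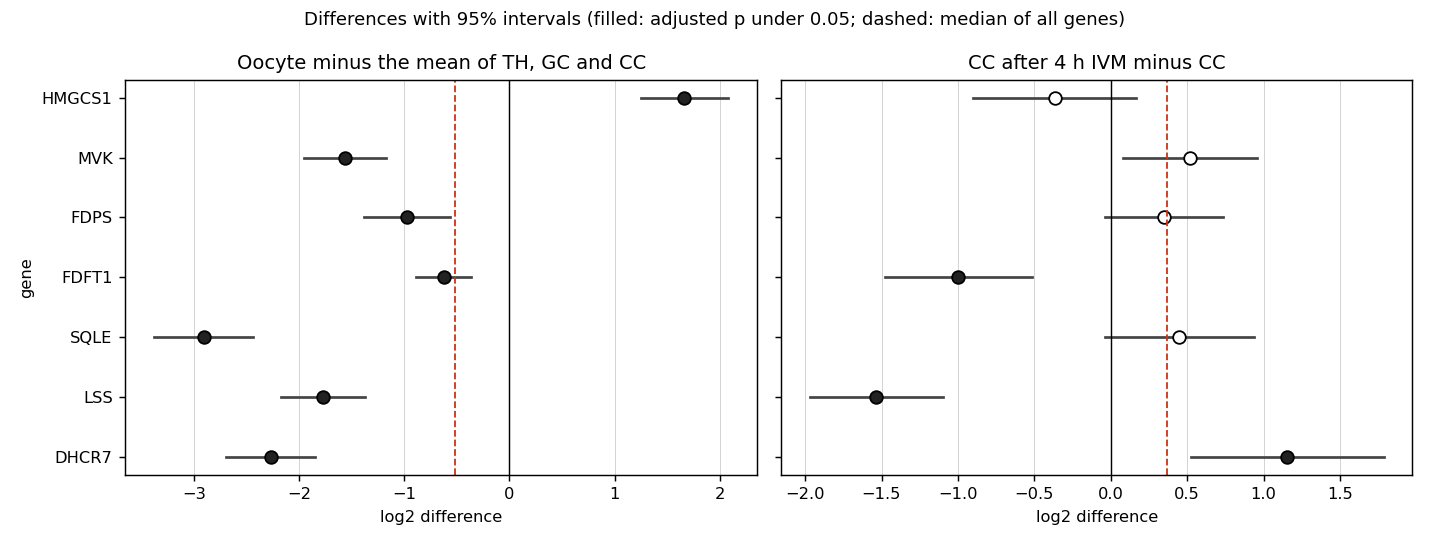
Log2 difference of each member between the oocyte and the somatic mean and between CC after IVM and CC, with 95% confidence intervals. The dashed lines mark the median of all genes, -0.52 and 0.37. LSS and DHCR7 are both lower in the oocyte and lie on opposite sides of 0 after IVM.

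Taken against each somatic cell type, the oocyte had 1 member higher and 6 lower both against GC (30.7% of all genes higher, 37.9% lower) and against CC (31.8% higher, 32% lower). Against TH it had 1 higher and 4 lower (32.5% and 32.1% of all genes), LSS and FDFT1 being the members without a call. The lower members include FDPS, whose direction cannot be read from its gene value. Over the alternatives the lower members were 4 to 6 against GC, 5 to 6 against CC and 3 to 6 against TH. The higher ones were 1 to 2 against each. These comparisons share the oocyte arrays. All oocyte arrays lay outside the somatic range for 5 of the 7 members, as they did for 45.9% of all genes, the exceptions being FDFT1 and LSS. In a joint test of the 4 cell types all 7 members passed, as did 71.3% of all genes.

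The counts against the somatic mean depended little on single arrays: with any 1 array left out they were again 1 higher and 6 lower. Scaling did shift all genes together. The median of all genes was -0.01 with quantile normalization and -1.30 with normexp background correction, and the share of called genes that were higher in the oocyte was 46.2% as analysed, 51.5% with quantile normalization, 52.1% with the array median, 37.8% in the deposited table, 36.7% when scaled on probes above background on all arrays and 26.4% with normexp. The member differences relative to the median of all genes were 2.18 for HMGCS1, -1.04 for MVK, -0.45 for FDPS, -0.11 for FDFT1, -2.39 for SQLE, -1.26 for LSS and -1.75 for DHCR7.

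Among the somatic cells, CC had the higher SQLE and LSS. SQLE levels in CC were 4.75, 4.98, 4.52 and 4.79, whereas GC had 3.22, 3.42, 2.58 and 4.10 and TH had 3.42, 3.62, 3.02 and 3.74. Every CC array was above every GC and TH array. The difference was 1.43 from GC (SE 0.27, adjusted p = 0.0031) and 1.31 from TH (adjusted p = 0.0014).

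LSS means were ordered TH, GC and CC from low to high, with levels of 2.54, 2.77, 3.04 and 3.35 in GC and 3.76, 3.61, 3.71 and 3.86 in CC, beside the TH values given above. None of the 3 groups overlapped. CC was 5.91-fold above TH (difference 2.56, adjusted p = 4e-07), GC was above TH by 1.75 (adjusted p = 3.2e-05), and CC was above GC by 0.81 (adjusted p = 0.036). The call between CC and GC was lost when any CC array or GC replicate 1, 2 or 3 was left out, with differences of 0.68 to 0.85 and adjusted p of 0.065 to 0.11.

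CC and GC thus differed in 2 of 7 members, both higher in CC, where 5.27% of all genes were called higher. GC replicate 4 had the highest GC level for HMGCS1, FDPS, FDFT1, SQLE, LSS and DHCR7. Without it 5 members were higher in CC, with HMGCS1 at 0.83 (adjusted p = 0.0083), DHCR7 at 1.03 (adjusted p = 0.0029) and FDFT1 at 0.49 (adjusted p = 0.034) added. The share of all genes called higher without that array was not counted, so this rise has no background to be read against. Within either slide alone, with 2 arrays per group, no member was called, although SQLE differed by 1.54 and 1.32 and LSS by 1.03 and 0.59. Summed oocyte markers were 0.561 to 3.01 in CC and 0.178 to 0.399 in GC, and 5 of the 6 were called higher in CC. Of the 5 theca markers, 2 were called lower in CC than in GC, ACTA2 (-2.41) and COL1A2 (-5.72), with sums of 25.2 to 32.6 in CC and 29.8 to 115 in GC. The part of either in these results was not tested.

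From TH, CC differed in 3 of 7 members (17.4% of all genes called higher): SQLE, LSS and FDFT1. FDFT1 levels were 3.08, 3.04, 2.92 and 3.02 in CC and 2.04, 2.21, 2.14 and 2.40 in TH, which did not overlap, and the difference was 0.82 (adjusted p = 0.00052). GC against TH had LSS and FDFT1 higher and DHCR7 lower, where 14.5% of all genes were higher and 11.8% lower. The FDFT1 difference of 0.45 (adjusted p = 0.038) and the DHCR7 difference of -0.73 (adjusted p = 0.038) were not firm. The first was lost on leaving out CC replicate 2, 3 or 4, GC replicate 3 or 4, or TH replicate 1, 2 or 3 (0.33 to 0.47, adjusted p = 0.05 to 0.11). The second was lost on leaving out GC replicate 1, 2 or 3 or TH replicate 2 or 4 (-0.69 to -0.59, adjusted p = 0.083 to 0.12). Blood and endothelial markers summed to 1.01 to 1.65 in TH and at most 0.148 in the other groups, and their part in the TH values was not tested.

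The second comparison asked what 4 h of IVM changed in CC. After IVM, DHCR7 was higher by 2.23-fold, whereas LSS was lower by 2.89-fold and FDFT1 by 2-fold. The other 4 members were not called as gene values in the chosen analysis, although each passed under some alternative, SQLE only with slide as a random block. Of all genes, 30.3% were called higher after IVM and 15.5% lower, and the median difference over all genes was 0.37 against 0.35 over the members. Genes near background are among all genes: PTPRC and CDH5, above background on 0 of 4 arrays in either group, had means of -7.34 and -7.61 in CC. After IVM these means were -6.64 and -6.90. The part of such genes in the shares and medians was not tested. The cumulus maturation markers moved as their name says: HAS2, which makes hyaluronan, was higher by 7.76 and TNFAIP6, a matrix protein, by 2.03, AREG, a ligand of the EGF receptor, was at least 15.4-fold higher (adjusted p = 9.8e-06), and PTX3 was not called. HAS2 was above background on only 2 of 4 CC arrays, and its difference ran from 5.16 to 8.07 over the alternatives.

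LSS fell from 3.76, 3.61, 3.71 and 3.86 in CC to 1.82, 2.20, 2.34 and 2.44 after IVM. The difference was -1.53 (SE 0.20, adjusted p = 0.00032), and the arrays did not overlap. FDFT1 fell from 3.08, 3.04, 2.92 and 3.02 to 2.12, 2.43, 1.96 and 1.56, a 2-fold decrease and again without overlap (SE 0.22 on the log2 scale, adjusted p = 0.0061). Relative to the median of all genes these decreases were -1.90 and -1.36.

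DHCR7 rose from 3.44, 3.48, 3.16 and 3.58 in CC to 3.98, 4.45, 4.51 and 5.34 after IVM. No array after IVM was as low as the highest CC array, and the difference was 1.15 (SE 0.28, adjusted p = 0.011).

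The remaining members were not called. MVK levels were 5.30, 5.80, 5.45 and 5.81 in CC and 6.08, 5.92, 6.21 and 6.24 after IVM, which did not overlap, and the difference of 0.52 missed the threshold (adjusted p = 0.053). It passed on leaving out CC_IVM replicate 2 (0.58, adjusted p = 0.044) and with the array median (adjusted p = 0.044), a trend in eBayes (0.032), the filter on dim genes (0.049), normexp (0.017) and slide as a random block (0.0042). Taken singly, MVK probe 2 was called higher (0.53, adjusted p = 0.048) and MVK probe 1 was not called (0.51, adjusted p = 0.068). HMGCS1 was 4.05, 4.29, 3.95 and 4.13 in CC and 4.08, 4.11, 3.49 and 3.26 after IVM, 2 of these arrays being low, with a difference of -0.37 (adjusted p = 0.23) that passed in the deposited table (-0.86, adjusted p = 0.0032) and with normexp (-0.50, adjusted p = 0.025). SQLE differed by 0.45 (adjusted p = 0.12) and FDPS by 0.35 (adjusted p = 0.12), both close to the median of all genes. With slide as a random block both passed (adjusted p = 0.016 and 0.017). That setting cannot decide here, since all arrays after IVM lay on their own slide and the estimated slide correlation was negative (-0.26). FDPS passed as well with the brightest probe (0.69), the mean over probes (0.52) and normexp (0.34). The FDPS-202 probes were called higher, by 0.73 (adjusted p = 0.026) and 0.70 (adjusted p = 0.027), whereas FDPS probe 2 differed by -0.04 (adjusted p = 0.91).

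CC arrays before and after IVM did not overlap for 5 of the 7 members, against 44% of all genes. The counts of 1 higher and 2 lower were those of 8 arrays on different slides, and the lower members were 2 with any array left out. The share of called genes that were higher was 66.1% as analysed, 43.2% with quantile normalization and 83.4% with normexp. LSS stayed between -1.97 and -1.51, FDFT1 between -1.41 and -0.97 and DHCR7 between 0.72 and 1.18 under the scalings tried. Summed oocyte markers were 0.161 to 0.56 after IVM and 0.561 to 3.01 in CC, and 4 of 6 were called lower. Of 20 alternatives, the call was lost in 10 for ZP3, in 6 for NLRP5 and in 1 for ZP2. The part of the oocyte markers in the result was not tested.

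Beyond the members, 32 other genes of synthesis, sterol sensing, uptake and intracellular cholesterol handling were followed. In the oocyte 10 were higher, 17 lower and 5 not called, with a median difference of -0.88, where 32.9% of all genes were higher and 38.3% lower. After IVM 12 were higher, 5 lower and 15 not called, with a median of 0.05, where 30.3% of all genes were higher and 15.5% lower. These shares are also those to be read beside the counts of each list. The genes named are those of largest difference among the called ones of each list, plus INSIG1 and SREBF2, and where a few others complete a count they were named after their values were seen.

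**Figure D4:**
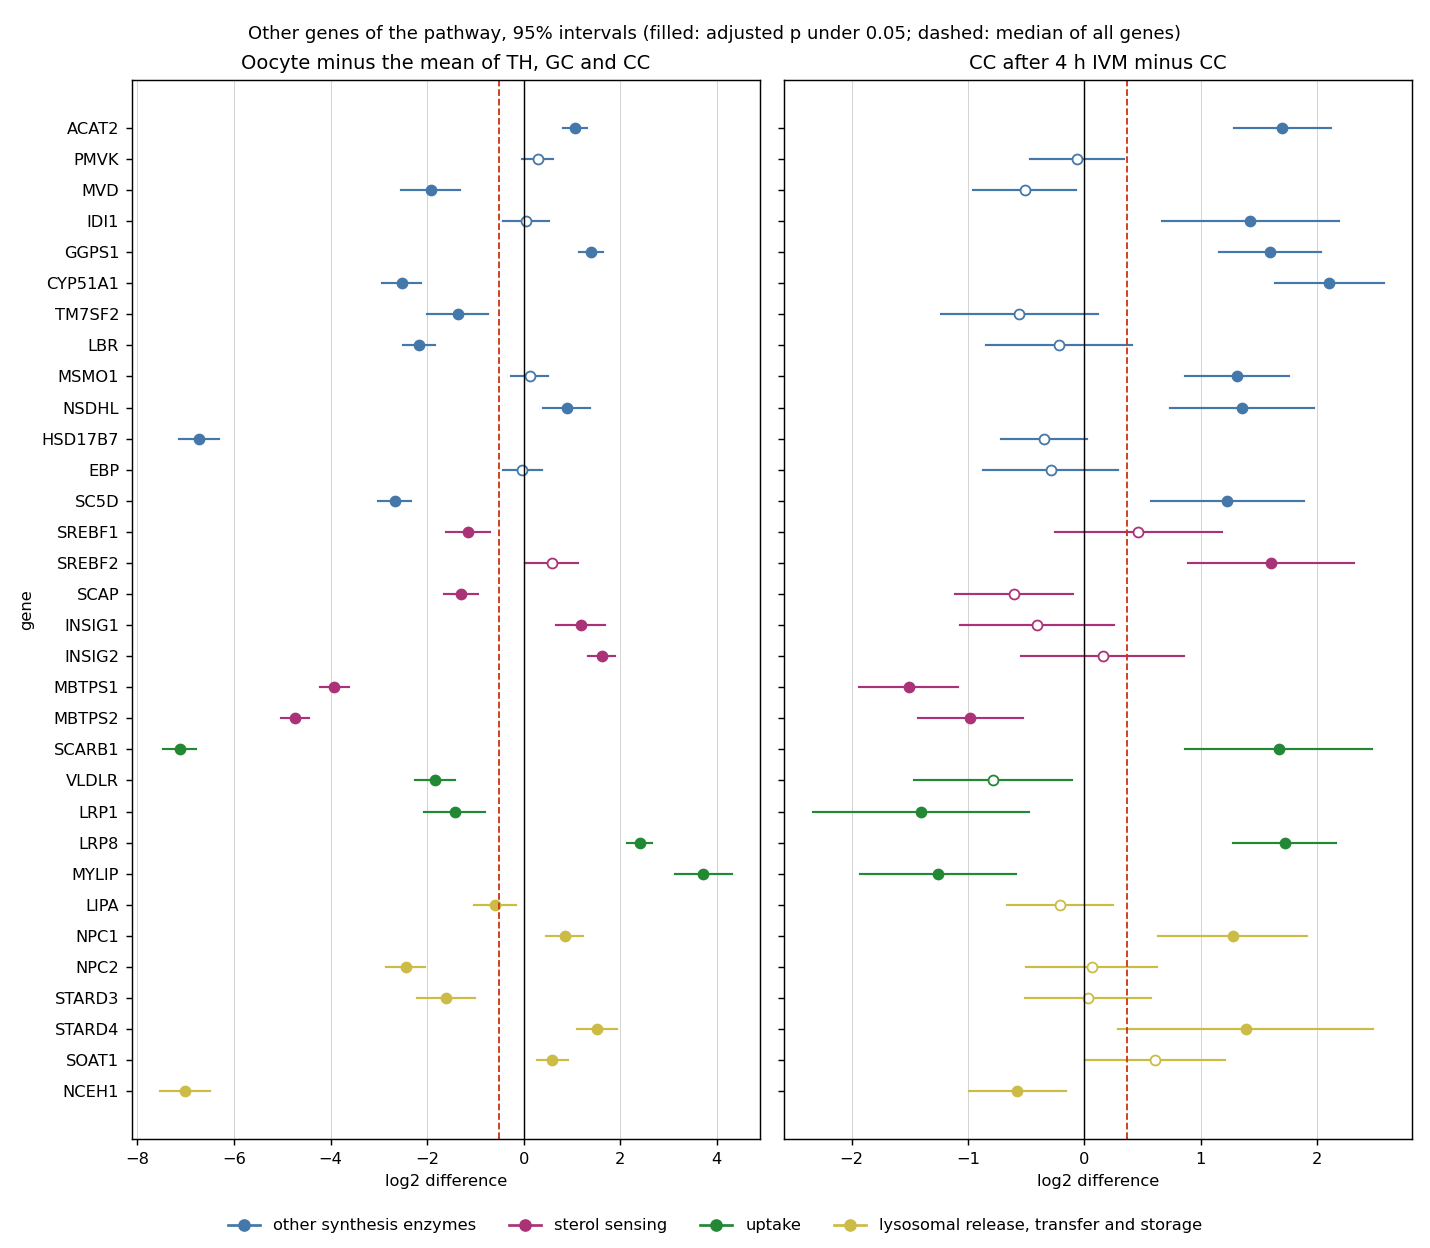
Log2 difference of the 32 other pathway genes, coloured by list, between the oocyte and the somatic mean and between CC after IVM and CC, with 95% confidence intervals. Filled points passed the test, and dashed lines mark the median of all genes. The 7 called genes among the other synthesis enzymes are higher after IVM, whereas in the oocyte 6 of that list are lower and 3 higher.

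Of the 13 other synthesis enzymes, 6 were lower, 3 higher and 4 not called in the oocyte, and their median difference was -0.03. HSD17B7, a sterol ketoreductase, differed by -6.73 (SE 0.20). SC5D, a late desaturase, differed by -2.68, CYP51A1, the lanosterol demethylase, by -2.53 and LBR, a sterol reductase of the nuclear envelope, by -2.17. MVD at -1.93 and TM7SF2 at -1.37 were the other 2. In the oocyte HSD17B7 and TM7SF2, like SREBF2, MBTPS2, LRP1 and STARD3 of the lists that follow, exceeded background on 3 arrays of 4. The 3 that were higher were GGPS1 at 1.40, ACAT2 at 1.06 and NSDHL at 0.89.

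After IVM 7 of these 13 enzymes rose and none fell, with 6 not called, beside 30.3% and 15.5% of all genes, and the median difference was 1.23 against 0.37 over all genes. CYP51A1 rose by 2.11 (SE 0.21, adjusted p = 7.7e-05), ACAT2, which makes acetoacetyl-CoA, by 1.71, GGPS1, the enzyme of geranylgeranyl diphosphate, by 1.60 and IDI1, which isomerises isopentenyl diphosphate, by 1.43. The other 3 were NSDHL, MSMO1 and SC5D, between 1.23 and 1.36. Each of the 7 was called in every alternative tried. LSS makes the substrate of CYP51A1, and the pair went in opposite directions: CYP51A1 levels were 1.08 ± 0.21 in CC and 3.19 ± 0.28 after IVM (SD, n = 4), and those of LSS 3.73 ± 0.11 and 2.20 ± 0.27, each on the scale of its own probes.

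In the sterol sensing list, the oocyte had 4 of 7 genes lower and 2 higher. The proteases that release SREBF2 from the membrane were both low, with MBTPS2 at -4.74 and MBTPS1 at -3.92, SCAP, the escort of the SREBF proteins, differed by -1.29 and SREBF1 by -1.16. The inhibitors INSIG1 and INSIG2 were higher, by 1.18 (adjusted p = 0.00037) and 1.61. INSIG1 was also high in CC, at 2.46 ± 0.54 (SD, n = 4), above GC by 1.69 and above TH by 2.32 on the log2 scale, beside 2.30 ± 0.04 in the oocyte. SREBF2 differed by 0.58 between the oocyte and the somatic mean without passing (adjusted p = 0.056). It passed as higher in 8 alternatives, among them quantile normalization (0.79, adjusted p = 0.0055) and the array median (0.75, adjusted p = 0.015), and as lower with normexp (-0.59, adjusted p = 0.0043), so no direction was settled. After IVM SREBF2 rose by 1.61 (adjusted p = 0.0041), MBTPS1 fell by 1.51 and MBTPS2 fell by 0.98, while INSIG1 was not called at -0.41 (adjusted p = 0.28).

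The uptake list had 5 genes, of which the oocyte had less signal for 3 and more for 2. SCARB1, the receptor for high-density lipoprotein, was 140-fold lower (difference -7.13), VLDLR differed by -1.83 and LRP1 by -1.43, the last without a call on slide 1 alone (-1.18, adjusted p = 0.07). MYLIP, a ubiquitin ligase for lipoprotein receptors, was higher by 3.72 and LRP8, itself a receptor of that family, by 2.40. VLDLR was also higher in CC than in GC, by 1.62 (adjusted p = 0.00053), and than in TH, by 2.18.

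After IVM 2 of the uptake genes rose and 2 fell. LRP8 was higher by 1.72 and SCARB1 by 1.67, whereas MYLIP was lower at -1.26 and LRP1 at -1.40. The LRP1 call was lost without CC replicate 1 or 2 or CC_IVM replicate 1 (-1.42 to -1.25, adjusted p = 0.053 to 0.057), and with normexp the difference was -0.03.

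Lysosomal release, transfer and storage were covered by 7 genes, and against the somatic mean 4 had a lower and 3 a higher oocyte signal. NCEH1, a cholesterol ester hydrolase, was not well above background in the oocyte (0 of 4 arrays) and at least 54-fold lower there (adjusted p = 5.2e-13). NPC2, which passes cholesterol to NPC1 within the lysosome, differed by -2.45, STARD3, a sterol transporter, by -1.62 and LIPA by -0.59, the last at 0.03 in the deposited table. Higher in the oocyte were STARD4, a cytosolic sterol carrier, at 1.51, NPC1 at 0.84 and SOAT1 at 0.59. With normexp STARD4 was 0.27 and lost its call (adjusted p = 0.093), and on slide 1 alone those of STARD3, LIPA, NPC1 and SOAT1 were lost (adjusted p = 0.05 to 0.15).

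After IVM NPC1, the partner of NPC2, rose by 1.28 (adjusted p = 0.0075). STARD4 at 1.39 (adjusted p = 0.042) and NCEH1 at -0.58 (adjusted p = 0.03) were called, but less firmly. The first was lost on leaving out any CC array or CC_IVM replicate 1, 3 or 4 (1.12 to 1.42, adjusted p = 0.07 to 0.11), and the second on leaving out CC replicate 1, 2 or 4 or CC_IVM replicate 4 (-0.59 to -0.50, adjusted p = 0.063 to 0.078). The NCEH1 call was also lost with all 20 arrays in 1 fit (adjusted p = 0.11) and with the brightest probe (0.054), and that of STARD4 with quantile normalization (0.11) and when scaled on probes above background on all arrays (0.073).

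The members did not vary as 1 block. Over the 20 arrays, which share groups and scale, Pearson's r between pairs of members ran from -0.78 to 0.93 with a median of 0.46 over 21 pairs, and HMGCS1 was negative with each of the others. These r take in the differences between groups, HMGCS1 being the member called higher in the oocyte. For pairs of members they were not computed without the oocyte or within a group, so they do not show how members vary among somatic arrays. The mean of the 7 members, each centred on its own mean, was -0.15 in TH, -0.01 in GC, 0.63 in CC, 0.57 after IVM and -1.05 in the oocyte. The CC arrays (0.50 to 0.73) and the arrays after IVM (0.56 to 0.59) overlapped, the latter lying within the range of the former, although LSS, FDFT1 and DHCR7 differed between them.

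Of 11355 genes well above background in every group, those with an r among the highest with this mean over the 20 arrays were PKM2 (0.98), ACADVL (0.97), TPI1 (0.97) and ALDOA (0.97). PKM2, TPI1 and ALDOA are names of glycolytic enzymes, and ACADVL codes for a mitochondrial enzyme of fatty acid oxidation. Without the oocyte, over 16 arrays, the values were 0.96, 0.92, 0.91 and 0.92. INSIG1 went from 0.17 to 0.95, INSIG1 being high in the oocyte, where the mean of the members was low. HSD17B7 went from 0.81 to -0.36, so its likeness over all arrays rested on the oocyte.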

How the data were processed

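Total RNA of 20 bovine samples was hybridised by the authors on a customised 60K Agilent array, 1 colour. The deposited scanner files hold background-subtracted spot intensity from Agilent Feature Extraction 10.7.3.1, named in the submitters' processing notes. The deposited value table holds log2 values, found here to equal log2 of the median signal minus the array median, and served as an alternative.

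Here log2 of the processed signal was centred on each array's 75th percentile over non-control probes, outlier spots were dropped, and the median over all probes of a gene was taken, without pseudocount or filter. Groups came from the sample labels. limma 3.58.1 in R 4.3.3 (lmFit, eBayes) was fitted to 16 arrays (TH, GC, CC, oocyte) and, separately, to 8 arrays (CC before and after IVM), with Benjamini-Hochberg adjustment over 22550 genes and a threshold of 0.05. The scripts were tested on simulated data in which 200 of 22550 genes were changed. A log2 change of 1 was recovered for 36.5% of these in the oocyte comparison and for 0% in that of IVM. A change of 2 was recovered for 91% and 73.5%. Many more genes were called in the data, so these shares need not hold there. A probe was above background when Feature Extraction flagged it so, and a gene where at least 1 probe was. A bound was given where no array of a group passed. Figures were drawn with matplotlib 3.10.9.

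The members and lists were chosen with earlier results of these data known. All members were named. From the pathway lists, INSIG1 and SREBF2, and up to 4 called genes per list of largest difference per main comparison were named, together with markers and those reported here of the 5 genes most like the member mean among the genes above background on at least 3 of 4 arrays in every group. MSMO1, SC5D and TNFAIP6 were listed under older symbols (SC4MOL, SC5DL, TSG-6). Some further genes of the pathway are not reported here and are left out of the list counts. The number of arrays limits the precision.

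Alternatives were other scalings, normexp background correction (offset 50), other summaries over probes, the deposited table, a filter on dim genes, eBayes with a trend, all 20 arrays in 1 fit, replicate number or slide as a block, each slide alone, each array left out and, chosen after seeing the data, slide as a random block. Deviations from the group mean, over all genes, had r from -0.127 to 0.34 (median 0.069) between same-numbered arrays of the 4 cell types (24 pairs). Other-numbered pairs of these cell types were not summarised for comparison. The main fits used no pairing. The centred member mean was highest on replicate 4 in TH (0.126), GC (0.523) and CC (0.73). In the oocyte it was not (-0.977, against -0.912 on replicate 3). No column of values went unused.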

Additional observations from a re-analysis of the deposited data

Results flagged for a closer look

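Each member, each of the 32 other pathway genes and each FDPS probe was searched for an array far from the other 3 of its group, and 11 of 215 groups held one by Dixon's criterion at the 95% level, which chance alone meets in about 1 of 20 groups. After IVM, FDPS was 2.34 on replicate 3, against 2.04 to 2.08 on the others. On replicate 2 after IVM, SREBF2 was -3.46 (others -2.15 to -2.06) and STARD4 was -4.67 (others -2.51 to -2.10), a value below the CC mean of that gene. In CC, replicate 2 was apart for SREBF1 at 1.16 (others 0.26 to 0.36), SCAP at 4.51 (others 4.86 to 4.91) and VLDLR at 2.35 (others 2.14 to 2.17), and replicate 4 for GGPS1 at 1.28 (others 1.42 to 1.45) and SCARB1 at 4.85 (others 4.54 to 4.55). NPC1 was 2.98 on TH replicate 1 (others 2.53 to 2.57). FDPS probe 1, near background throughout, was -3.43 on TH replicate 1 (others -7.57 to -7.36) and -6.82 on CC replicate 2 (others -7.57 to -7.45).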

How the results depend on the processing

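With 1 array left out, members higher in the oocyte were 1 to 1 and lower 6 to 6, members called over the 4 cell types were 7 to 7, and after IVM 1 to 2 were higher and 2 to 2 lower. The corresponding counts over all genes were 14585 to 19152 for the oocyte, 15440 to 19862 for the 4 cell types and 6529 to 10989 after IVM. All genes called after IVM numbered 10329 as analysed, 6727 with the filter on dim genes, 17714 with normexp and 6455 with quantile normalization. Members higher after IVM were 2, instead of 1, with the array median, the brightest probe, eBayes with a trend, the filter and the mean over probes, 3 with normexp and 4 with slide as a random block, whose estimated slide correlation was negative (-0.26). With the brightest probe 2 members were higher in the oocyte.

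FDPS turned with its brightest probe to 1.86 against the somatic mean, 2 against TH, 1.98 against GC and 1.6 against CC. It was 1.94 and 1.86 with probe 3 or 4 alone, and 0.03 against TH and 0.16 against GC in the deposited table. FDFT1 turned in the deposited table to 0.02 against the somatic mean and 0.13 against GC. Other genes that turned were EBP (0.61) and LIPA (0.03) with the deposited table and LIPA (0.89) with the brightest probe in the oocyte, SREBF2 with normexp in the oocyte (-0.59), and after IVM BMP15 (0.33) and TM7SF2 (0.26) with normexp and FSHR (0.06) with the brightest probe. The cause was not tested.

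Whether the replicate numbers pair the samples is not known, and the replicate block left the member counts at 1 and 6 in the oocyte and at 1 and 2 after IVM. Between CC and GC the block gave 3 members instead of 2, adding DHCR7 (0.76, adjusted p = 0.024), with the share of all genes not counted. After IVM it ended the call of NCEH1 (-0.58, adjusted p = 0.077). A fixed slide block and each slide alone were not run for IVM, since its slide held no other group. Signal over background limits FDPS probe 1, which was not well above background on 19 of 20 arrays.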
